A study of Nicotiana tabacum with 4 samples.

Results

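The 200 most abundant transcripts of young wild-type tobacco leaf were followed across 4 RNA-seq libraries. They were taken from 50705 gene models as the 200 with the highest mean FPKM (fragments scaled to model length and library total) in the wild-type (WT) libraries, among the 16519 models with at least 100 reads in both. All libraries came from young primary leaf of mature Nicotiana tabacum plants. Of these, 2 (Wov 1 and Wov 2, titled T1 and T2) came from plants transgenic for Wov, an allele of the tomato gene Woolly, and 2 (WT 1 and WT 2) from plants labelled wild-type. The cultivar, the promoter driving the transgene, the number of lines and plants, and whether libraries of a genotype came from separate plants were not given in the sources used here. P-values therefore reflect the spread between these 4 samples alone, part of which may be technical.

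Leaf mRNA is dominated by a small number of very abundant transcripts. In green leaves these usually include mRNAs of the small subunit of Rubisco, the carbon-fixing enzyme of photosynthesis, of the chlorophyll-binding antenna proteins and of other photosynthetic proteins, and their levels vary with light, time of day and leaf age. Woolly encodes a class IV homeodomain-leucine zipper protein that acts in multicellular trichomes, the hairs of the leaf surface. Tobacco is an allotetraploid, so many of its genes have a closely related copy from the other parental genome. The deposited tables identify models by number only, and 0 of the 50705 IDs matched a RefSeq gene of assembly ASM71507v2. No model could be given a name, a function, a chromosome or a sequence, and neither the leaf identity of the samples nor the introduced gene could be checked by named transcripts.

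The libraries held 9126074 (Wov 1), 10813356 (Wov 2), 11736154 (WT 1) and 11110640 (WT 2) reads assigned to gene models. The 200 models were all well counted, from 125 to 200604 reads per model and library, so counting error was small beside the differences between libraries. The FPKM were the read counts divided by a model length and the library total, and so no independent measurement.

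The levels within the set were steeply graded. The most abundant model had an FPKM of 14188 in Wov 1, 19969 in Wov 2, 15291 in WT 1 and 16467 in WT 2. It ranked first in each of the 4 libraries, and the WT values lay between the Wov values. The second model had an FPKM of 5288 in Wov 1, 9224 in Wov 2, 7747 in WT 1 and 7987 in WT 2, and the WT values again lay between the Wov values. The third stood at 3183, 2232, 1308 and 2790 in the same order, with the WT libraries further apart than the Wov libraries. Mean WT FPKM was 15879 ± 832 (SD, n = 2) for the first, 7867 ± 170 for the second and 2049 ± 1048 for the third model. At rank 100 it was 445. The last member had a mean WT FPKM of 309.5 (360 in WT 1 and 259 in WT 2), and the next model, outside the set, 309.0 (380 and 238), so the boundary separates no distinct class. No model above this level was left out by the minimum of 100 reads. The median FPKM of the 200 was 489 in WT 1 and 427 in WT 2, which the choice of members fixed as high, and 379 in Wov 2 and 251 in Wov 1. Over all models with a read, the median ran from 2.41 to 2.62.

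**Figure D1:**
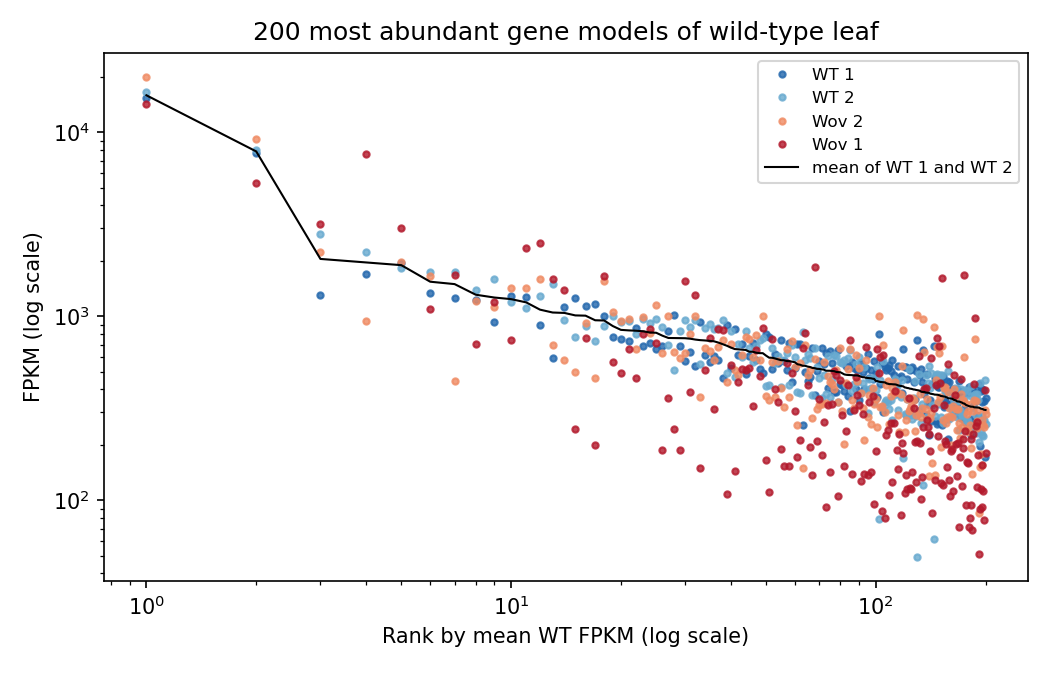
FPKM of each of the 200 models (vertical axis, log scale) against its rank by mean WT FPKM (horizontal axis, log scale), with 1 point per library and a line for the WT mean. The first model is the highest in every library, the fourth exceeds the second in Wov 1 (7642 against 5288), and below about rank 20 many Wov 1 points lie under the WT line.

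The 200 models, 0.394% of all models in the tables, held 21.5% of summed FPKM in WT 1 and 22.5% in WT 2, against 21.3% in Wov 2 and 19.7% in Wov 1. The means were 22.0% ± 0.745 (SD, n = 2) in WT and 20.5% ± 1.11 in Wov, a difference of -1.49 percentage points. The size of this difference rested on single libraries, with -0.71 without Wov 1, -2.28 without Wov 2, -2.02 without WT 1 and -0.97 without WT 2. The groups did not overlap, but Wov 2 lay close to WT 1, the WT shares were raised by the choice of members, and no permutation of 2 against 2 libraries can give a two-sided exact p below 0.333. By reads the share was 15.3% in WT 1 (95% exact binomial interval 15.31 to 15.35), 16.1% in WT 2 (16.05 to 16.09), 15.1% in Wov 2 (15.05 to 15.09) and 13.0% in Wov 1 (12.97 to 13.01). These intervals cover counting error only.

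The shares of the libraries differed along the ranking. The 20 most abundant models held 8.93% of summed FPKM in Wov 1, 8.28% in Wov 2, 7.25% in WT 1 and 8.42% in WT 2, and their median log2 difference from the WT mean was -0.15 in Wov 1 and 0.04 in Wov 2. The high share of Wov 1 came from the fourth model, which took 1.35% there and 0.156% to 0.384% elsewhere. Without it, an alternative added after seeing the data, the class held 7.58% in Wov 1, 8.12% in Wov 2, 6.97% in WT 1 and 8.03% in WT 2. Ranks 21 to 100 held 5.98% in Wov 1, 7.06% in Wov 2, 7.60% in WT 1 and 8.27% in WT 2. Ranks 101 to 200 held 4.79%, 5.93%, 6.61% and 5.82% in the same order. Below rank 20 the share of Wov 1 was the lowest of the 4 in both rank classes. The most abundant model alone took 2.51% in Wov 1, 3.31% in Wov 2, 2.52% in WT 1 and 2.83% in WT 2.

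**Figure D2:**
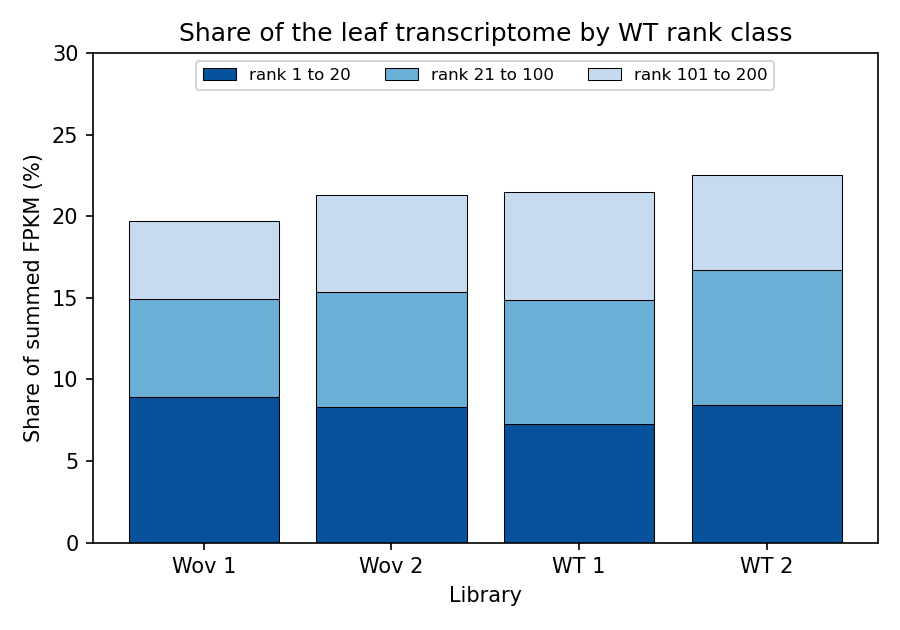
Share of summed FPKM (vertical axis, %) held by the 200 models in each library, stacked by WT rank class. The totals are 19.7% in Wov 1, 21.3% in Wov 2, 21.5% in WT 1 and 22.5% in WT 2, and the class of ranks 1 to 20 is largest in Wov 1, where the fourth model alone holds 1.35%.

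The next question was how many of the 200 were also among the 200 most abundant models of a Wov library, with the same minimum of 100 reads. In Wov 2 there were 152 (76.0%) and in Wov 1 there were 99 (49.5%). The WT libraries, on which the set was chosen, individually kept 171 (WT 1) and 165 (WT 2). All 4 libraries shared 75 of the models. The Wov libraries shared 96, Wov 2 alone kept a further 56 and Wov 1 alone a further 3, and 45 were outside the first 200 of both. Of the first 20 models, 20 were kept in Wov 2 and 18 in Wov 1. Of ranks 101 to 200, 59 were kept in Wov 2 and 30 in Wov 1. The median rank of the set was 205.5 in Wov 1 and 123.5 in Wov 2. In Wov 1, 59 of the models lay below rank 400 and 8 below rank 1000, against 10 and 1 in Wov 2. WT 2 itself held 5 of them below rank 400 and 3 below rank 1000.

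The 45 models outside the first 200 of both Wov libraries lay between WT ranks 61 and 200. Together they held 3.12% of summed FPKM in WT 1, 2.51% in WT 2, 1.76% in Wov 2 and 1.07% in Wov 1. In 44 of them Wov 1 was below Wov 2.

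**Figure D3:**
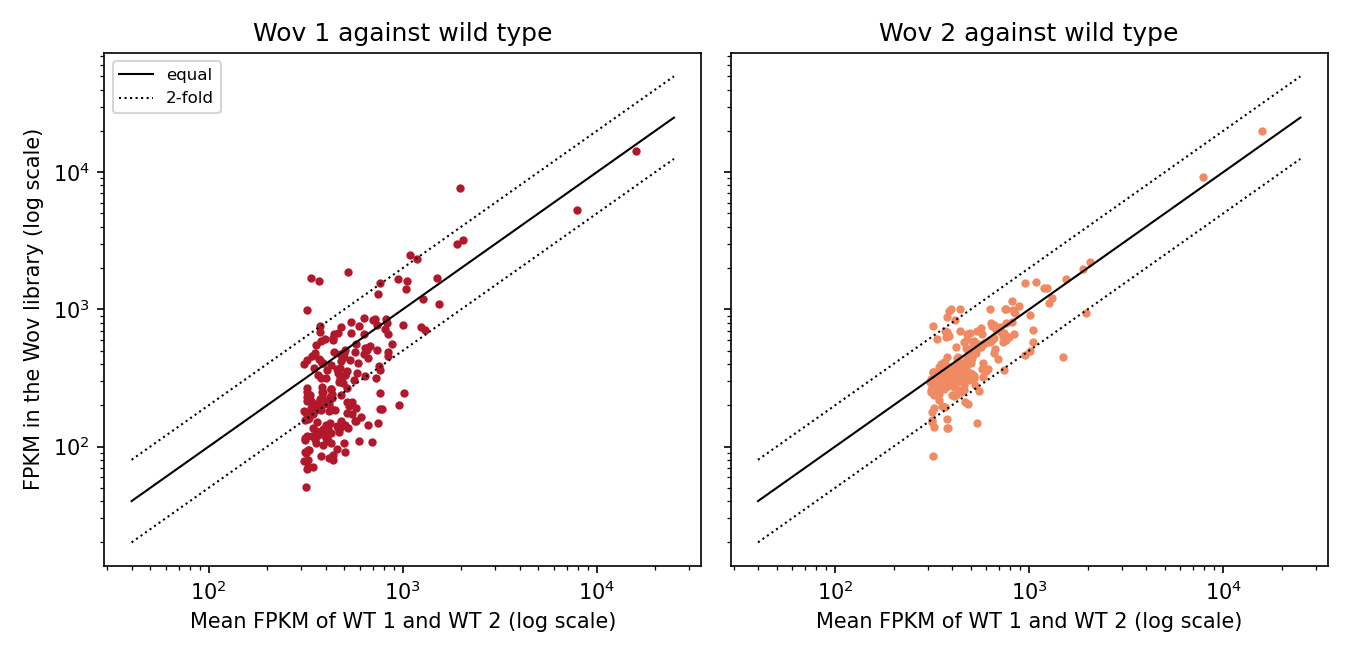
FPKM of each of the 200 models in Wov 1 (left) and Wov 2 (right), on the vertical axis, against the mean FPKM of WT 1 and WT 2, both on log scales. The solid line marks equal levels and the dotted lines a 2-fold difference; most Wov 2 points lie between the dotted lines, and many Wov 1 points lie below the lower one.

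Models picked for high WT values tend to be lower elsewhere, so the ranking was repeated on 1 WT library and the other served as a comparison that the ranking had not used. The 200 models ranked on WT 1 alone had a median log2 ratio of FPKM to WT 1 of -0.36 in WT 2, -0.39 in Wov 2 and -1.18 in Wov 1. Wov 2 thus lay about as far below the ranking library as the held-out wild type did. Set directly against WT 2, the median was -0.07 for Wov 2 and -0.87 for Wov 1, where the models with at least 100 reads in both WT libraries had medians of -0.04 and -0.15. At least 2-fold below WT 2 were 9 models in Wov 2 (4.5%, against 8.47% of the models with 100 reads) and 86 in Wov 1 (43.0%, against 18.7%). Among the 200 highest of the other libraries were 136 in WT 2, 133 in Wov 2 and 81 in Wov 1.

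Ranked on WT 2 alone, the models had medians of -0.26 in WT 1, -0.18 in Wov 2 and -0.57 in Wov 1 against WT 2. Set against the held-out WT 1, the median was -0.06 for Wov 2 and -0.41 for Wov 1, with -0.05 and -0.13 over the models with 100 reads. At least 2-fold below WT 1 were 15 models in Wov 2 (7.5%, against 8.95%) and 56 in Wov 1 (28.0%, against 22.6%), so these shares lay near those of the models with 100 reads. In both rankings the median of Wov 1 was thus farther below the held-out wild type than that of Wov 2. Of the models ranked on WT 2 alone, 136 were among the 200 highest of WT 1, 148 of Wov 2 and 115 of Wov 1.

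The libraries of a genotype differed from each other within the set. Wov 1 and Wov 2 were at least 2-fold apart in 71 of the 200 models (35.5%), where 25.7% of all 38981 models tested and 19.3% of those with 100 reads in both WT libraries were that far apart. WT 1 and WT 2 were 2-fold apart in 17 (8.5%), against 12.5% of all tested and 4.44% of those with 100 reads. Wov 2 was 2-fold apart from WT 2 in 17 models (8.5%, against 21.5% of all tested and 12.2% of those with 100 reads), and its distance to WT 1 was that large in 31 (15.5%, against 20.5% and 14.3%). Wov 1 was that far from WT 2 in 89 (44.5%, against 29.7% and 25.6%) and that far from WT 1 in 105 (52.5%, against 39.0% and 34.8%). Within the set, the median absolute difference was 0.25 log2 units between Wov 2 and WT 2 and 0.52 between WT 1 and WT 2. Over the models with 100 reads this order was turned round, at 0.37 and 0.30, as it was over all tested, at 0.47 and 0.38. The members were picked on WT values, and a model high in 1 WT library alone can enter the set, which widens the gap between the WT libraries. Between the Wov libraries the median was 0.75 in the set, 0.48 over the models with 100 reads and 0.56 over all tested. In 136 models (68.0%) the lowest of the 4 log2 CPM (counts scaled to library size) was that of Wov 1, as it was in 33.6% of all tested and 43.3% of those with 100 reads. WT 1 was the highest in 92 (46.0%), against 27.7% and 33.0%. Which property of the Wov 1 plants, RNA or library moved with this was not tested. In whole leaf, fewer cells of a type and less of a transcript per cell cannot be told apart.

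Of the 71 models uneven between the Wov libraries, 60 were higher in Wov 2 and 11 in Wov 1. The 60 had a median FPKM of 128 in Wov 1 and 352 in Wov 2, and 53 of them were also higher in WT 1 than in WT 2. The 11 had a median FPKM of 1597 in Wov 1 and 585 in Wov 2, and 10 of them were higher in WT 2 than in WT 1. Across the 200 models the differences within the genotypes, Wov 1 minus Wov 2 against WT 1 minus WT 2, had a Pearson correlation of -0.62 and a Spearman correlation of -0.70, against -0.49 and -0.46 over all tested. Models within 1 library share its depth and preparation, so this is a description with no p. In 133 models WT 1 and Wov 2 lay on the same side of their genotype's other library, 97 on the higher and 36 on the lower. The counts of sides given here carry no share over all tested models, where the correlation was negative too.

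**Figure D4:**
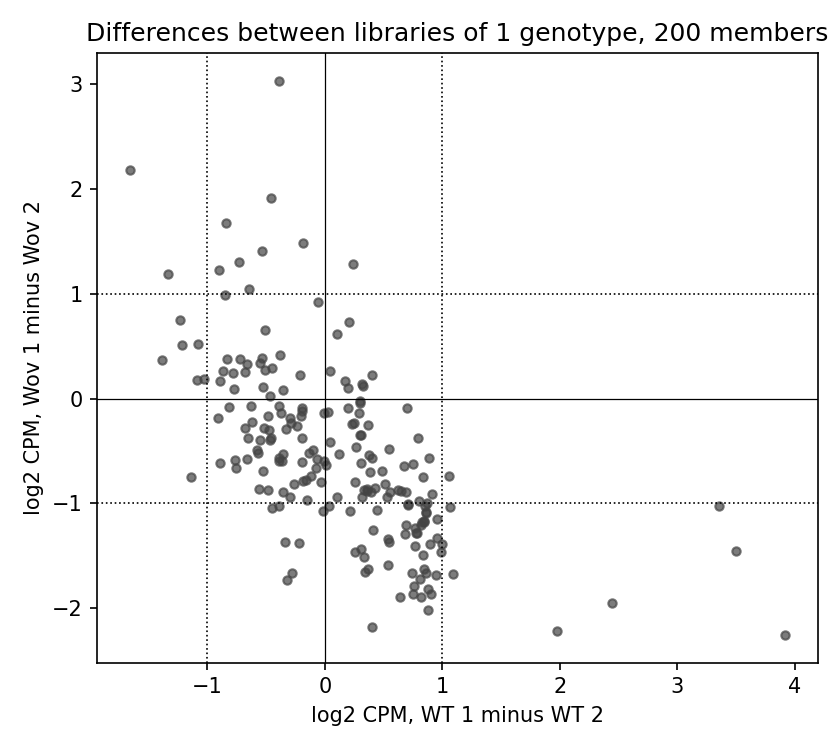
Difference in log2 CPM between Wov 1 and Wov 2 (vertical axis) against that between WT 1 and WT 2 (horizontal axis), with 1 point per model and dotted lines at 2-fold. Most points lie in the upper left and lower right parts of the plot, and 5 lie far to the right with Wov 2 above Wov 1.

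A few models were far apart between the WT libraries. In 5 models, at WT ranks 102 to 144, WT 1 was at least 3-fold above WT 2, and in all 5 Wov 2 was also above Wov 1. The widest gap was that of the model at rank 130, with an FPKM of 744 in WT 1, 49.3 in WT 2, 211 in Wov 1 and 1011 in Wov 2. WT 1 was 15.1-fold above WT 2, and Wov 2 was 4.77-fold above Wov 1. It owes its place in the set to WT 1 and ranked 2087 in WT 2. The widest gap between the Wov libraries was that of the fourth model, with an FPKM of 7642 in Wov 1, 938 in Wov 2, 1691 in WT 1 and 2234 in WT 2. Its level in Wov 1 was 8.19-fold that in Wov 2, and the WT levels lay between them. These models were described after their values were seen.

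The central comparison was that of Wov with WT over all 4 libraries, fitted on every model with edgeR's quasi-likelihood test and read out for the 200. Their median log2 fold change was -0.46, a WT level 1.37-fold that of Wov, beside -0.01 over all tested and -0.14 over the models with 100 reads. It was -0.18 for ranks 1 to 20, -0.45 for ranks 21 to 100 and -0.56 for ranks 101 to 200. Of the 200, 152 had a fitted level below WT (76.0%, against 50.6% of all tested and 59.3% of those with 100 reads). Within 0.5 log2 units of no difference lay 89 (44.5%), fewer than the 50.7% of all tested and the 54.8% of those with 100 reads. A fitted difference of at least 2-fold was seen in 43 models lower in Wov (21.5%, against 9.95% of all tested and 11.8% of those with 100 reads) and 5 higher (2.5%, against 10.6% and 4.41%). Because the rule fixed the WT levels as high, these medians and counts describe the set and are no test. Relative to the WT mean, the median was -0.80 log2 units in Wov 1 and -0.20 in Wov 2. Without Wov 1 the median log2 fold change was -0.21, and without Wov 2 it was -0.83, beside -0.03 and -0.04 over all models in those fits.

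**Figure D5:**
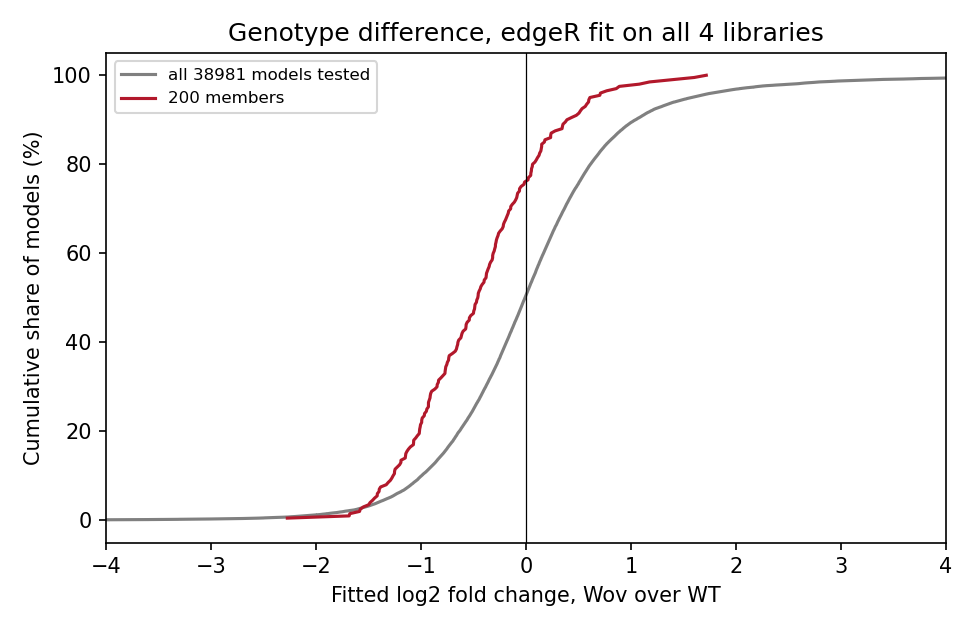
Cumulative share of models (vertical axis, %) by fitted log2 fold change of Wov over WT (horizontal axis), for the 200 models and all 38981 tested. The curve of the 200 lies to the left, with medians of -0.46 and -0.01.

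None of the 200 passed an adjusted p of 0.05 (0 models, against 0% of all tested), and their adjusted p by edgeR (quasi-likelihood test, Benjamini-Hochberg over all 38981 models) started at 0.196. An unadjusted p under 0.05 was reached by 21 of the 200 (10.5%), fewer than the 14.3% of all tested and the 15% of those with 100 reads. Of these 21, 18 were lower in Wov (9.0%, against 6.22% of all tested and 9.95% of those with 100 reads) and 3 higher (1.5%, against 8.04% and 5.04%). DESeq2's Wald test called 8 of the 200 at an adjusted p under 0.05, 6 lower in Wov (3.0%, against 1.09% of the models in the edgeR fit and 2.01% of those with 100 reads) and 2 higher (1.0%, against 2.46% and 1.14%). The count at an unadjusted p under 0.05 rested on single libraries. Leaving out Wov 1 gave 4 (2.0%, against 12.2% of all models in that fit) and leaving out Wov 2 gave 69 (34.5%, against 26.4%). The counts were 9 (4.5%, against 6.75%) when WT 1 was left out and 13 (6.5%, against 8.52%) for WT 2, so the whole table moved with the library left out. In these fits the single library left in a genotype was taken to vary as the pair of the other genotype did. At an adjusted p under 0.05, 2 models passed without Wov 2, both lower in Wov (1.0%, against 5.95% of all models in that fit).

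Both Wov libraries lay below both WT libraries in 87 models (43.5%, against 24.9% of all tested and 33.3% of those with 100 reads) and above both in 14 (7.0%, against 24.2% and 20.3%). The remaining 99 overlapped. The 87 had median FPKM of 171 in Wov 1, 314 in Wov 2, 497 in WT 1 and 384 in WT 2, and in 83 of them Wov 1 was below Wov 2. The 14 had median FPKM of 922, 699, 453 and 531 in the same order. A gap of more than 2-fold between every Wov and every WT library was found in 4 models, all lower in Wov (2.0%, against 2.33% of all tested and 2.82% of those with 100 reads). No model of the 200 was set apart upwards by 2-fold (0 models, against 3.86% and 1.23%). The 99 overlapping models held 13.6% of summed FPKM in Wov 1, 14.3% in Wov 2, 12.6% in WT 1 and 14.5% in WT 2. The majority of the set's FPKM thus came from models whose genotypes overlapped.

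The models with the smallest p were chosen by rule, 2 in each direction, and carry no name or known role. The smallest p among models lower in Wov was that of gene_9822 (rank 192, length 1352 bases), which had an FPKM of 51.1 in Wov 1, 85.6 in Wov 2, 430 in WT 1 and 207 in WT 2. The genotypes did not overlap, although the WT libraries were 2.09-fold apart. Its log2 fold change was -2.28 (SE 0.56, adjusted p = 0.196 by edgeR), a WT level 4.84-fold that of Wov. The model gene_14500 (rank 145, 727 bases) had an FPKM of 128 in Wov 1, 137 in Wov 2, 464 in WT 1 and 287 in WT 2. Its Wov libraries were nearly equal, and its log2 fold change was -1.55 (SE 0.43, adjusted p = 0.230 by edgeR).

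In the other direction, gene_19277 (rank 187, 751 bases) had an FPKM of 984 in Wov 1, 755 in Wov 2, 260 in WT 1 and 380 in WT 2. Both Wov values exceeded both WT values, and the model ranked 323 and 127 in the WT libraries but 22 and 34 in the Wov libraries. Its log2 fold change was 1.39 (SE 0.45, adjusted p = 0.272 by edgeR). The model gene_77922 (rank 175, 1498 bases) had an FPKM of 1680 in Wov 1, 603 in Wov 2, 312 in WT 1 and 358 in WT 2. The genotypes did not overlap, but Wov 1 was 2.80-fold above Wov 2. Its log2 fold change was 1.72 (SE 0.62, adjusted p = 0.307 by edgeR). DESeq2 gave all 4 an adjusted p under 0.05, from 0.00131 for gene_9822 to 0.0464 for gene_19277.

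Of the 3 most abundant models none stood apart between the genotypes. The first had a log2 fold change of 0.05 (SE 0.52, adjusted p = 0.975 by edgeR), the second -0.17 (SE 0.53, adjusted p = 0.913) and the third 0.35 (SE 0.55, adjusted p = 0.813). Each of these differences was smaller than its standard error, and with standard errors of this size even a 2-fold difference would lie within 2 standard errors of none.

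The set was made of short models, which the ranking on FPKM favours. The lengths implied by the FPKM had a median of 1070 bases and lay between 175 and 3790, against a median of 2298 and limits of 121 and 114303 for the models with 100 reads in both WT libraries. The labels and files used here do not say whether these lengths include introns. Ranked by mean CPM, with no division by length, 124 of the 200 would still have been chosen. Within the set, length was only weakly related to the genotype difference, with a Pearson correlation of 0.03 and a Spearman correlation of 0.10 across the 200 models. The median log2 fold change was -0.65 in the 67 shortest models, up to 855 bases, -0.46 in the middle 66 and -0.37 in the 67 longest.

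Equal lengths occurred in 9 pairs of the set, 18 models in all. The first and second models both had 929 bases, and the FPKM of the first was 1.97 times that of the second in WT 1, 2.06 in WT 2, 2.16 in Wov 2 and 2.68 in Wov 1. In 3 of the 9 pairs, this one included, the log2 ratio of the members varied by less than 0.5 over the 4 libraries, and over all 9 pairs the variation ran from 0.38 to 3.50. Equal length does not show that models are copies of each other, and reads of near-identical copies could be split between them by the counting, so levels of single models in such pairs are uncertain.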

How the data were processed

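Messenger RNA of young leaves was measured by RNA-seq in 2 Wov and 2 WT libraries. The authors deposited whole-number read counts per gene model and FPKM for the same models. Per the submitters' processing notes, TopHat was used. The aligner version, counter, build, gene models and strand setting were not given in the sources used here. All 181596 FPKM above 0 equalled count over length and library total within a relative tolerance of 1e-04. Each length was itself derived from the FPKM of the library with most reads of the model. In that library the equality follows from the derivation, apart from rounding to whole bases.

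The genotypes were compared with edgeR 4.0.16 under R 4.3.3 (default count filter, 38981 models kept, TMM scaling, robust quasi-likelihood test, two-sided, Benjamini-Hochberg adjustment, threshold 0.05, no covariate). All 200 members passed the filter. Log2 CPM used a prior count of 2, and standard errors were the fold change over the square root of its F statistic. Shares were computed from summed FPKM. The fitting procedure was tested on simulated counts with known changes, at an adjusted p under 0.05. It called 0 of 67 models changed 2-fold, 6 of 67 changed 4-fold and 63 of 66 changed 16-fold. It also called 15 unchanged models. The absence of members at an adjusted p under 0.05 thus says little about changes of 2-fold to 4-fold. Alternatives were DESeq2 1.42.0, limma 3.58.1 (log2 of FPKM plus 1 or plus 0.1), other scalings, filters and rankings, and each library left out. Named models were the 2 with the smallest p in each direction; others are described by rank. Members and tests were chosen with earlier results of these data known. Libraries of the same number deviated from their genotype means in opposite directions (correlation -0.49 across all tested models), so same-numbered libraries were not treated as paired.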

Additional observations from a re-analysis of the deposited data

How the results depend on the processing

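With 2 libraries per genotype the results depended most on single libraries. Members at an adjusted p under 0.05 numbered 0 in the edgeR fit and under other scalings and rankings, against 0% of all models. They also numbered 0 in edgeR without the count filter, against 0.370% of all models. With limma on log2(FPKM + 1) or log2(FPKM + 0.1) they numbered 0, against 0.341% and 0.405%. DESeq2 gave 8 (4.0%, against 2.89% of all models). Members at an unadjusted p under 0.05, 21 in all, became 40 with DESeq2 (20%, against 10.7% of all models). In edgeR without the count filter they stayed at 21 (10.5%, against 12.8%). With limma on log2(FPKM + 1) or log2(FPKM + 0.1) they numbered 7 (3.5%, against 15.4% and 15.0%). With limma on log2(FPKM + 1) and no filter on low values they numbered 6 (3.0%, against 13.4%). With the replicate number as a block, 2 members had an unadjusted p under 0.05 (1.0%, against 7.49% of all models) and 0 an adjusted one. With the crossed pairing of Wov 1 with WT 2 as a block, chosen after the deviations of these libraries were known, 49 members had an adjusted p under 0.05, 24.5% against 14.5% of all models, and 85 an unadjusted one, 42.5% against 27.6%. Members set apart by more than 2-fold ran from 0 to 5 higher and 4 to 68 lower with libraries left out. Leaving out a library sets a single library against a pair, which makes this rule easier to meet. The 5 and the 68 were found without Wov 2. There Wov 1 alone was set against WT libraries whose levels the choice of members fixed as high. These counts carry no share over all models and are no test. When ranked on WT 2 alone or on CPM, 2 members were set apart as lower. The mean share of summed FPKM was 19.2% in Wov and 21.6% in WT when ranked on WT 1 alone. Ranked on WT 2 alone, it was 20.8% in Wov and 21.5% in WT. Each of these WT means includes the ranking library. The mean share was 18.6% in Wov and 19.3% in WT when ranked on CPM, and 15.1% and 15.8% for 100 members. As a share of reads it was 14.0% in Wov and 15.7% in WT. The difference between genotypes stayed negative, from -2.28 to -0.71 percentage points with libraries left out. Of 100 members, 49 were among the 100 highest of Wov 1 and 69 of Wov 2. The median log2 fold change stayed negative in all of these settings, from -0.83 without Wov 2 to -0.21 without Wov 1. In each of them the members were chosen on high WT values, which favours a negative median, so the sign is no test. The 4 named models kept their direction in 14 alternative fits, which the choice of well separated models favours, and each passed an adjusted p of 0.05 in 2 of them, DESeq2 and the crossed block. The cause of the other changes was not tested. Counts kept in the first 200 of a Wov library have no value for a left-out library, since members were held fixed.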

Other observations

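Models outside the 200 took the places that opened in the Wov libraries. Among the 200 most abundant models of Wov 1 were 101 that did not belong to the wild-type set, and among those of Wov 2 there were 48. The libraries had 31 of them in common, which is 30.7% of the 101 and 64.6% of the 48. They held 7.74% of summed FPKM in Wov 1 and 4.03% in Wov 2. Of the 101, 36 came from WT ranks 201 to 400 and 30 from below rank 1000 or from models under 100 reads in a WT library. Of the 48, 25 and 12 did. With these included, the 200 highest models of each library held 24.7% of summed FPKM in Wov 1, 23.4% in Wov 2, 21.9% in WT 1 and 23.0% in WT 2.

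Few of the abundant models were steady. In 12 of the 200 (6.0%) all 4 libraries lay within 0.5 log2 units, where 12.5% of all tested models and 17.8% of those with 100 reads in both WT libraries did. The 12 included the most abundant model. The steadiest, at rank 113, had an FPKM of 392 in Wov 1, 442 in Wov 2, 394 in WT 1 and 458 in WT 2, a range of 1.21-fold in scaled CPM. At the other end, 57 (28.5%) ranged over 4-fold or more, against 18.1% of all tested and 11.6% of those with 100 reads. The lowest library was Wov 1 in 136 of the 200 (68.0%, against 33.6% of all tested and 43.3% of those with 100 reads). Picking members on WT values can also widen these ranges.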
